A study of Drosophila melanogaster with 9 samples.

Results

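Peptidoglycan recognition proteins (PGRPs) are the family through which flies detect and clear bacterial cell wall. The genes described here were chosen by symbol, as 5 amidase genes (PGRP-SC1a, PGRP-SC1b, PGRP-SC2, PGRP-LB and PGRP-SB1) and 5 genes of receptors and other non-catalytic members (PGRP-LC, PGRP-LE, PGRP-LF, PGRP-LA and PGRP-SD). All 10 were found among the 15682 gene identifiers of the count tables, which list 13 genes of the family. As background, PGRP-LC at the cell surface and PGRP-LE inside the cell bind peptidoglycan of the diaminopimelic acid type and start IMD signalling, which acts through the NF-kappaB factor Relish (Rel) to turn on antimicrobial peptide genes. Catalytic members cut peptidoglycan into fragments that stimulate the pathway less. In the midgut, where bacteria are present throughout life, such amidases are known for restraining the response to the resident flora.

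RNA was sequenced from dissected midguts of virgin females of a w1118 background, aged 15 days, in 3 groups of 3 libraries. The control was labelled wild type, the tra mutant lacked the splicing regulator transformer, and the rescue (tra, esg>traF) was the same kind of mutant with traF, the female form, expressed under esg. esg is active in midgut stem cells and their undifferentiated daughters, and transgene expression was induced by the shift to the higher temperature. The labels name neither the tra alleles nor the driver or transgene content of the control and mutant. The flies were kept for 3 days at 18 °C and 10 days at 29 °C. Each library came from 30 pooled midguts, so whole organs were measured although esg acts in progenitor cells. In such bulk samples, fewer cells of a type and less RNA per cell cannot be told apart.

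Libraries held 84839470 to 108455374 gene counts. The targeted gene tra had 650 to 821 counts in the control libraries, 1 to 2 in the mutant and 294 to 756 in the rescue. Markers fixed for the midgut summed to 25590 CPM (TMM-scaled counts per 1000000 gene counts) or more in every library, against at most 0.192 CPM for ovary markers. Control replicate 3 stood apart from the other libraries on the first principal component, at -64.2 against -34.6 and -34.5 for the other controls and 18.8 to 27.0 for the mutant and rescue. Summed fat body markers were 14.6 to 96.5 CPM in control, 4.78 to 6.51 in the mutant and 6.39 to 12.4 in the rescue. Most of the control sum came from the yolk protein genes Yp1, Yp2 and Yp3, which averaged 25.1, 11.4 and 11.7 CPM. In the mutant these averaged 0.179, 0.170 and 0.261 CPM, and in the rescue 0.129, 0.160 and 1.60. Of the other markers, apolpp and Lsp1gamma were also lower than in control. Lsp2 (0.123, 0.190 and 0.879 CPM) and Fbp2 (0.247, 0.505 and 0.705) were higher, and Fbp1 was near 0 throughout. Summed haemocyte markers were 21.9 to 53.0, 13.7 to 19.9 and 15.1 to 34.5 CPM in the same order, highest in control replicate 2 and, among rescue libraries, in rescue replicate 2. Visceral muscle markers summed to 1585 to 1983, 985 to 1251 and 1022 to 1539 CPM, tracheal markers to 28.9 to 37.7, 22.9 to 23.3 and 19.4 to 23.0, and enteroendocrine markers to 329 to 393, 454 to 506 and 465 to 579. Progenitor markers (3 of 5 matched, without esg and Dl) summed to 28.6 to 77.4, 31.3 to 43.3 and 28.2 to 36.3 CPM. Within this sum Sox21a averaged 26.1, 10.6 and 7.74 CPM in control, mutant and rescue, and N 9.32, 7.25 and 7.43. The third, zfh2, went the other way, at 12.9, 17.7 and 18.0 CPM. Markers of Malpighian tubule and hindgut summed to 1.60 to 3.72, 2.13 to 3.27 and 2.85 to 5.88 CPM. None of the matched markers was at 0 in all libraries. The part of these cells in the results that follow was not tested.

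Per exon length, the secreted gut amidase PGRP-SC2 was by far the highest of the family, and the 2 main sensors of IMD signalling differed from each other in level. In control midguts PGRP-SC2 measured 1400 ± 654 CPM per kb of exon (SD, n = 3 here and below), rank 52 of 9682 genes when averaged over the 9 libraries. PGRP-LB, an amidase with secreted and intracellular forms, followed at 78.7 ± 21.1 CPM per kb, and PGRP-SC1a and PGRP-SC1b at 53.6 ± 54.8 and 51.5 ± 54.1. These 3 did not differ beyond their spread, nor did the SC1 copies from the intracellular sensor PGRP-LE, which measured 39.8 ± 5.50 CPM per kb. The surface sensor PGRP-LC measured 14.7 ± 0.616 CPM per kb. PGRP-LA, a regulator of the pathway that does not bind peptidoglycan, measured 15.7 ± 3.04 CPM per kb and overlapped PGRP-LC. PGRP-SD, a secreted sensor protein, and PGRP-LF, a membrane protein that inhibits PGRP-LC, overlapped at 2.01 ± 0.918 and 1.88 ± 0.760 CPM per kb. PGRP-SB1, a secreted amidase, was the lowest of the 10 at 0.349 ± 0.135 CPM per kb. Lengths are those of current Ensembl exons, a newer annotation than the counts were made with. The length of PGRP-SC1b (1.65 kb, against 0.588 kb for PGRP-SC1a) bears on its place in this order. Length also widens the difference between PGRP-LE (2.07 kb) and PGRP-LC (3.74 kb over all its transcripts). Without it, these measured 82.4 ± 11.4 and 54.8 ± 2.31 CPM in control.

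**Figure D1:**
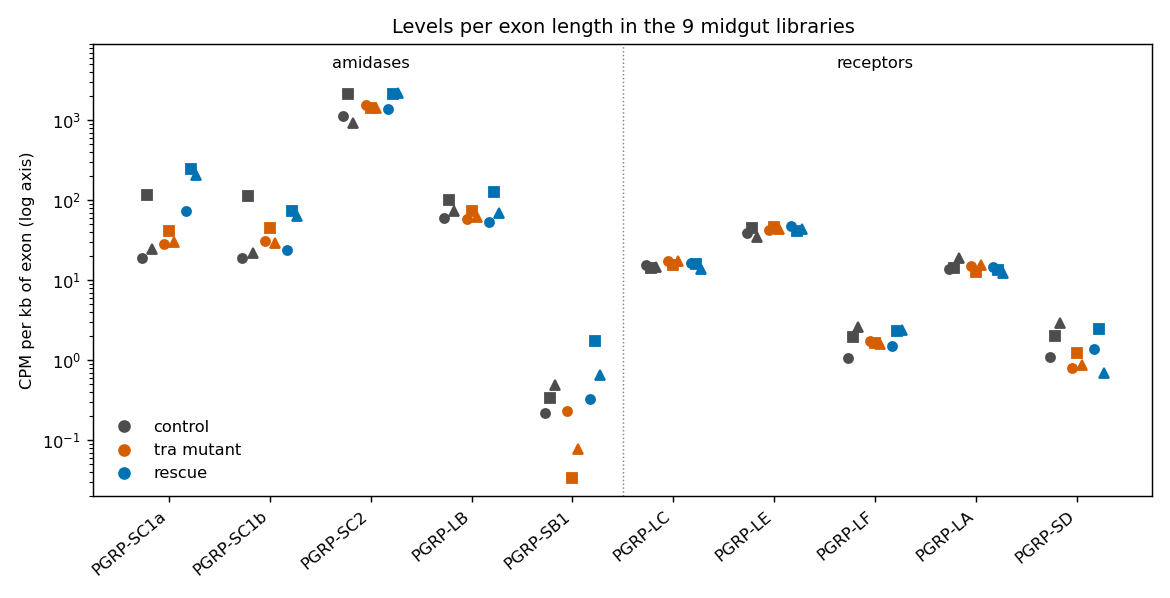
Each point is 1 library's CPM per kb of exon (log axis) for the 5 amidase genes and the 5 receptor genes, coloured by group (circle, square and triangle for replicates 1, 2 and 3). PGRP-SC2 lies above all other members in every library, and PGRP-SB1 lies below them in every library.

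No member passed with edgeR (adjusted p under 0.05) in any comparison. In mutant against control, 0 of 10 members passed with edgeR, where 6.67% of the 10088 genes tested did. In rescue against mutant 0 of 10 passed against 0.466% of all genes, and in rescue against control 0 of 10 against 9.44%. At an unadjusted edgeR p under 0.05 there were 0, 2 and 1 members in the 3 comparisons, against 24% (mutant against control), 5.07% and 27.3% of all genes. With DESeq2 there were 0, 1 and 0 members, against 13.4%, 1.26% and 17.1%. The 10 members had a median log2 fold change of -0.23 in mutant against control, 0.36 in rescue against mutant and 0.11 in rescue against control, where all tested genes had -0.03, 0.00 and -0.03. These comparisons share libraries and are not independent of each other. The intervals of PGRP-LC, PGRP-LE and PGRP-LA were narrow, whereas those of PGRP-SC1a, PGRP-SC1b and PGRP-SB1 were wide.

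**Figure D2:**
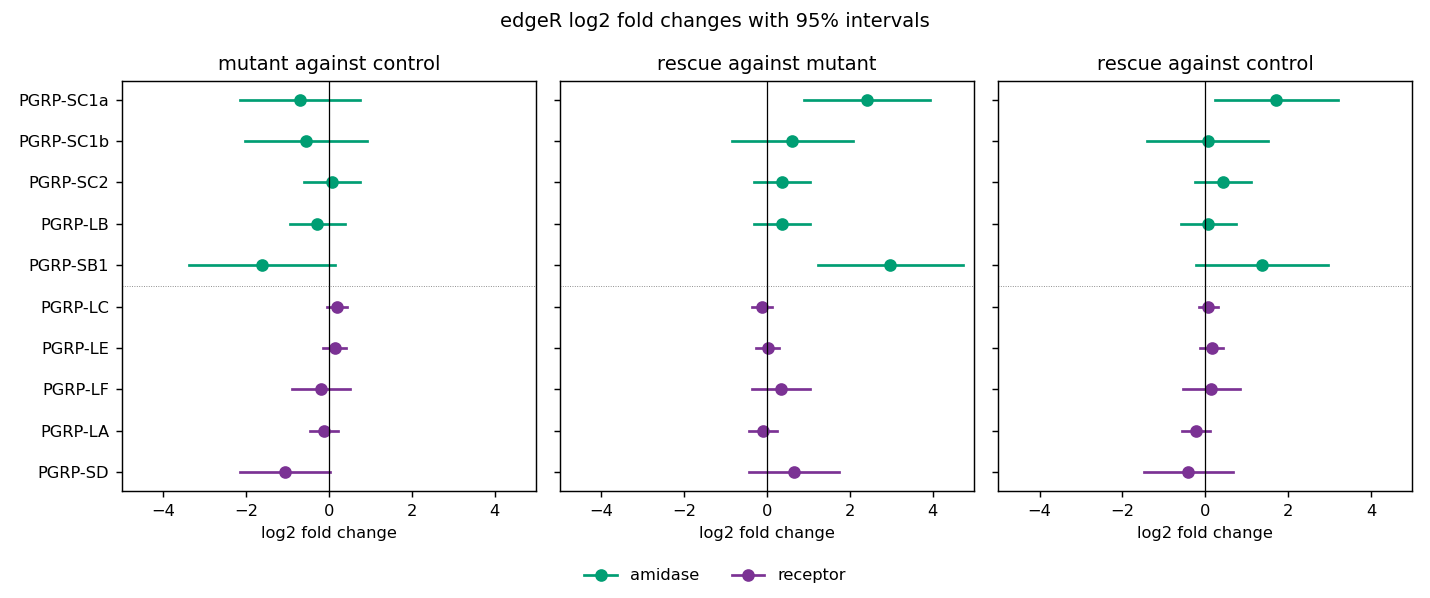
Log2 fold changes from edgeR with 95% intervals (horizontal lines) for the 10 members, amidases in green and receptors in purple, in the 3 comparisons. The intervals of PGRP-SC1a and PGRP-SB1 lie above 0 in rescue against mutant, and that of PGRP-SC1a in rescue against control, although none of these passed after adjustment over all genes.

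**Figure D3:**
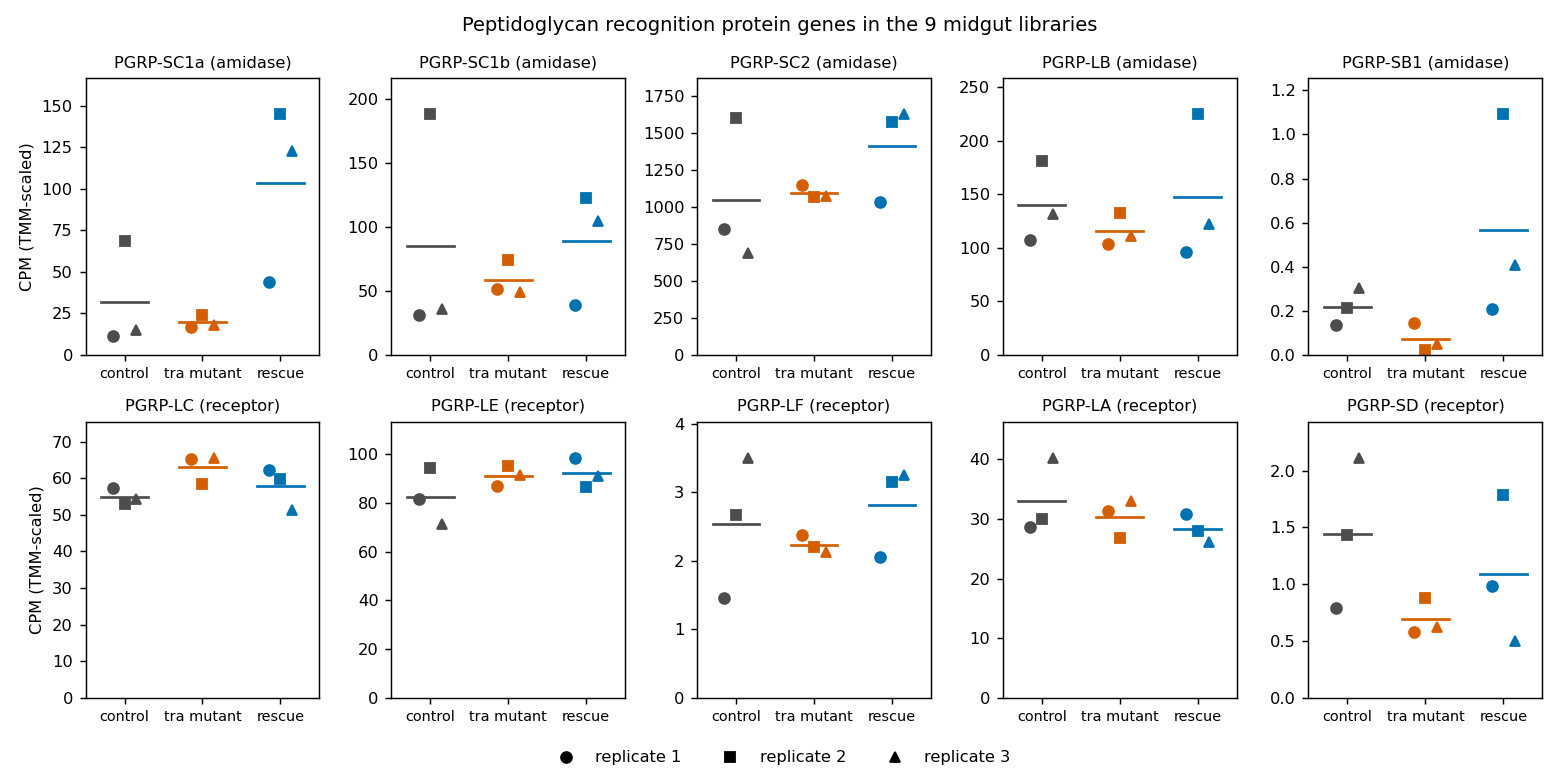
CPM of each member in each of the 9 libraries, with the group mean as a line and marker shapes for the replicate number. The y axes start at 0 and differ between panels. Control replicate 2 (square) is the highest control for all amidases except PGRP-SB1.

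PGRP-SC1a and PGRP-SC1b are near-identical secreted amidase genes of the same cluster on arm 2R, with CG14743 between them and PGRP-SC2 next to PGRP-SC1b. Their levels varied several-fold between control libraries and between rescue libraries, and less between mutant libraries (1.45-fold for PGRP-SC1a and 1.52-fold for PGRP-SC1b). The balance between the copies varied little within a group. PGRP-SC1a measured 11.3, 68.7 and 14.6 CPM in control libraries, 16.6, 24.0 and 17.8 in mutant libraries and 43.5, 145 and 123 in rescue libraries. PGRP-SC1b measured 31.3, 188 and 35.7 CPM in control libraries, 51.0, 74.4 and 48.8 in mutant libraries and 38.9, 123 and 105 in rescue libraries. Every rescue library was above every mutant library for PGRP-SC1a, while control replicate 2 reached into the rescue range, and for PGRP-SC1b all groups overlapped.

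For PGRP-SC1a the log2 fold change was 2.41 ± 0.68 (SE) in rescue against mutant (edgeR adjusted p = 0.413, 0.0447 to 1 over the alternatives) and 1.72 ± 0.66 in rescue against control (edgeR adjusted p = 0.129, 0.00892 to 0.515, the highest with both copies summed). The first passed when only the 6 libraries compared were fitted (edgeR adjusted p = 0.0447, where 0.709% of genes passed). The second passed without control replicate 2 (3.00 ± 0.48, edgeR adjusted p = 0.00892, where 9.48% of genes passed). Mutant against control measured -0.69 for PGRP-SC1a and -0.55 for PGRP-SC1b (edgeR adjusted p = 0.545 and 0.646), and both turned positive without control replicate 2, to 0.59 and 0.79. PGRP-SC1b measured 0.61 ± 0.66 in rescue against mutant and 0.06 ± 0.65 in rescue against control (edgeR adjusted p = 0.999 and 0.963). That last value was 1.40 without control replicate 2 (edgeR adjusted p = 0.0768) and turned negative, at -0.33 to -0.07, without control replicate 1 or 3 or rescue replicate 2 or 3.

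The balance between the copies was followed as the share of PGRP-SC1a in the summed counts of both, a measure that no scaling of the libraries changes. It was chosen after the values were seen and is given as a description. An exact permutation test of it was run, but with 3 libraries against 3 its p cannot fall below 0.1. No conclusion is drawn from that test. In control libraries PGRP-SC1a made up 26.5%, 26.8% and 28.9%, in mutant libraries 24.6%, 24.4% and 26.8%, and in rescue libraries 52.8%, 54.2% and 54.0%. The 95% Wilson intervals, which cover counting error only, were 25.2% to 27.9% in control replicate 1 and 51.8% to 53.8% in rescue replicate 1. In every rescue library PGRP-SC1a had more counts than PGRP-SC1b, and in every control and mutant library fewer. The mean share was 27.4% ± 1.34 in control, 25.2% ± 1.31 in the mutant and 53.7% ± 0.746 in the rescue. The rescue was higher than the mutant by 28.4 percentage points and higher than control by 26.3. Mutant against control differed by -2.17 percentage points, and these groups overlapped. Within the control group the summed counts of both copies differed 5.90-fold between libraries, while the ratio of PGRP-SC1a to PGRP-SC1b was 0.378 ± 0.0257, and it was 0.338 ± 0.0237 in the mutant and 1.16 ± 0.0344 in the rescue.

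Reads that align to both copies were not counted to either, so more transcript from PGRP-SC1a and a difference in how reads divide between the copies cannot be told apart from these counts. Alignments at more than 1 place made up 14.6% to 22.9% of a library's total. With the counts of both copies summed to 1 gene, the log2 fold change was 1.31 ± 0.66 in rescue against mutant, 0.72 ± 0.66 in rescue against control and -0.59 ± 0.66 in mutant against control (edgeR adjusted p = 0.999, 0.515 and 0.62).

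**Figure D4:**
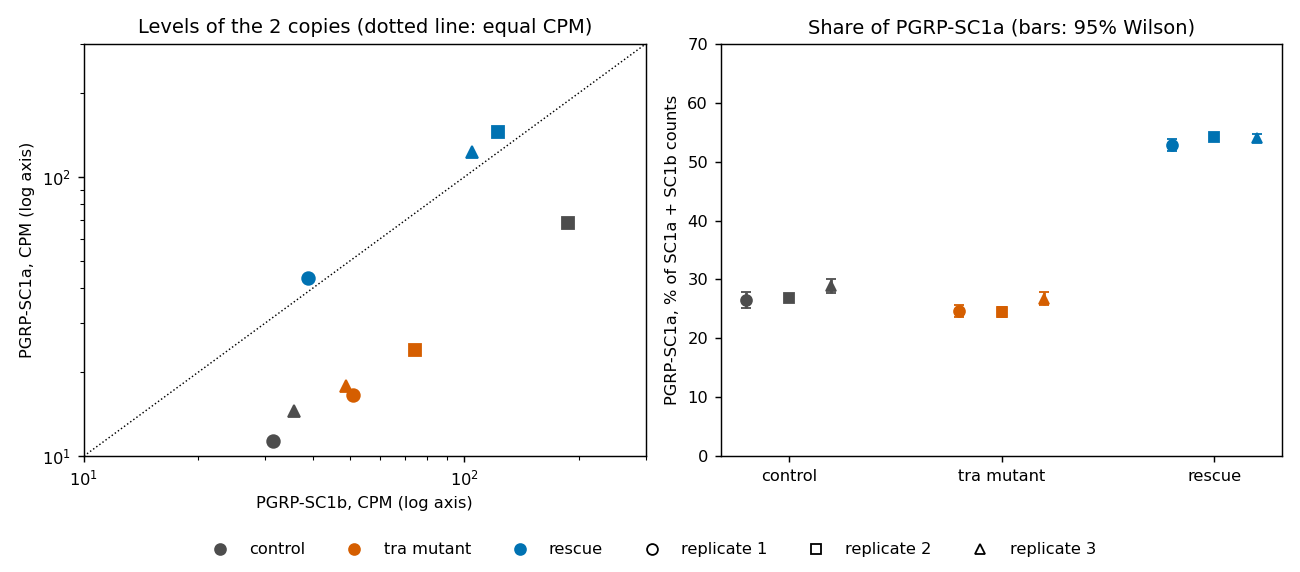
Left, PGRP-SC1a against PGRP-SC1b in CPM (log axes), 1 point per library, with a dotted line at equal CPM. Right, the share of PGRP-SC1a in the summed counts of both copies with 95% Wilson intervals: 24.4% to 28.9% in the 6 control and mutant libraries and 52.8% to 54.2% in the 3 rescue libraries.

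PGRP-SC2 and PGRP-LB overlapped between all groups. PGRP-SC2 measured 849.6, 1600 and 684.6 CPM in control libraries, 1144, 1066 and 1075 in mutant libraries and 1030, 1570 and 1623 in rescue libraries. The mutant libraries lay within the control range, and rescue replicates 2 and 3 lay near control replicate 2. Its log2 fold change was 0.07 ± 0.30 in mutant against control (95% interval -0.61 to 0.75), 0.36 ± 0.30 in rescue against mutant and 0.43 ± 0.30 in rescue against control (edgeR adjusted p = 0.916, 0.999 and 0.398). The first turned negative without control replicate 1 or 3, at -0.06 and -0.15. The last passed without control replicate 2 (0.88 ± 0.23, edgeR adjusted p = 0.048).

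PGRP-LB measured 107, 181 and 131 CPM in control libraries, 104, 132 and 110.5 in mutant libraries and 96.2, 224 and 122 in rescue libraries. All groups overlapped, and replicate 2 was the highest library in each. The log2 fold change was -0.28 ± 0.30 in mutant against control, 0.35 ± 0.30 in rescue against mutant and 0.08 ± 0.30 in rescue against control (edgeR adjusted p = 0.611, 0.999 and 0.894). The latter values turned negative without rescue replicate 2, at -0.07 and -0.34, and the rescue against control value also did without control replicate 1, at -0.08. Its 6 annotated transcripts encode secreted and intracellular forms that gene counts do not separate.

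PGRP-SB1 was close to the detection limit and more variable than the other members. It had 13, 20 and 34 counts in control libraries, 14, 2 and 5 in mutant libraries and 24, 91 and 35 in rescue libraries. In CPM these were 0.135, 0.213 and 0.303, then 0.143, 0.021 and 0.0478, then 0.206, 1.09 and 0.405. Every rescue library was above every mutant library, and rescue replicate 2 was the highest of all. The log2 fold change in rescue against mutant was 2.98 ± 0.78 (edgeR adjusted p = 0.327, 0.0113 to 0.954 over the alternatives), and it passed with DESeq2 at 3.01 (DESeq2 adjusted p = 0.0113). Without rescue replicate 2 it was 2.10 (edgeR adjusted p = 0.933), and without mutant replicate 1 it was 3.97 (edgeR adjusted p = 0.308). Mutant against control measured -1.61 ± 0.79 and rescue against control 1.37 ± 0.71 (edgeR adjusted p = 0.246 and 0.248). The first was -2.60 without mutant replicate 1 and the second 0.50 without rescue replicate 2.

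PGRP-SC1a and PGRP-SB1 were the members whose groups did not overlap in rescue against mutant, 2 of 10, where the groups of 12.2% of all tested genes did not overlap. In mutant against control this held for PGRP-LC, 1 of 10 against 25.6% of all genes, and in rescue against control for 0 of 10 members against 31.4%. These counts rest on TMM-scaled CPM. PGRP-SB1 had the widest range of the members, 4.01 on the scale of log2 of CPM plus 0.05. Without the added 0.05, its highest library was 52.0-fold its lowest. The genes whose centred log2 CPM lay closest to its own over the 9 libraries were Tsf1, which encodes a secreted iron-binding transferrin, pnr, which encodes a GATA factor, and CG12934. Their mean absolute differences were 0.31, 0.53 and 0.55 on the log2 scale, where the median tested gene differed by 0.90. Tsf1 measured 4.74, 7.99 and 5.50 CPM in control libraries, 6.36, 4.80 and 2.87 in mutant libraries and 6.76, 33.6 and 13.3 in rescue libraries. Tsf1 was picked for its likeness over these same libraries, so its peak in rescue replicate 2 is not independent of that of PGRP-SB1.

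PGRP-LC, PGRP-LE and PGRP-LA were the steadiest members, with 1.28-fold, 1.38-fold and 1.54-fold between the lowest and highest of the 9 libraries, where PGRP-SC1a spanned 12.8-fold. PGRP-LC measured 57.4, 52.9 and 54.2 CPM in control libraries, 65.1, 58.5 and 65.6 in mutant libraries and 62.1, 59.8 and 51.4 in rescue libraries. The mutant libraries were all above the control libraries, by a small margin, and the rescue overlapped both. That separation depends on the TMM scaling. By library totals alone, mutant replicate 2 (5573 of 98721986 gene counts) lies below control replicate 1 (5509 of 93765308). The log2 fold change was 0.20 ± 0.11 in mutant against control (95% interval -0.04 to 0.44), -0.13 ± 0.11 in rescue against mutant and 0.08 ± 0.11 in rescue against control (edgeR adjusted p = 0.281, 0.999 and 0.688). PGRP-LC has 10 annotated transcripts, and receptor forms with different recognition domains were counted together.

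PGRP-LE measured 81.5, 94.3 and 71.5 CPM in control libraries, 86.8, 95.1 and 91.5 in mutant libraries and 98.6, 86.4 and 91.2 in rescue libraries, with all groups overlapping. Its log2 fold change was 0.14 ± 0.12 in mutant against control (95% interval -0.13 to 0.42), 0.01 ± 0.12 in rescue against mutant and 0.16 ± 0.12 in rescue against control (edgeR adjusted p = 0.507, 0.999 and 0.442). The rescue against mutant value, near 0, turned slightly negative without mutant replicate 1 or rescue replicate 1, at -0.02 and -0.03.

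PGRP-LA lies beside PGRP-LC and PGRP-LF on arm 3L, in the order PGRP-LA, PGRP-LC, PGRP-LF on the same strand. It measured 28.6, 30.0 and 40.3 CPM in control libraries, 31.3, 26.8 and 33.0 in mutant libraries and 30.8, 27.9 and 26.1 in rescue libraries. Control replicate 3 was the highest library. The log2 fold change was -0.12 ± 0.15 in mutant against control, -0.10 ± 0.15 in rescue against mutant and -0.22 ± 0.15 in rescue against control (edgeR adjusted p = 0.658, 0.999 and 0.371). The first turned to 0.06 without control replicate 3.

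PGRP-LF measured 1.46, 2.67 and 3.51 CPM in control libraries, 2.37, 2.21 and 2.13 in mutant libraries and 2.05, 3.15 and 3.25 in rescue libraries. The control libraries spanned 2.40-fold and enclosed all the others. Its log2 fold change was -0.19 ± 0.31 in mutant against control, 0.33 ± 0.31 in rescue against mutant and 0.15 ± 0.31 in rescue against control (edgeR adjusted p = 0.749, 0.999 and 0.797). The first was 0.13 without control replicate 3 and the last -0.13 without control replicate 1. In the newer annotation 602 of its 1355 exon bases overlap UGP on the other strand, so its counts are uncertain where counting ignored strand.

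PGRP-SD is known as a partner of PGRP-SA in Toll signalling and also as an enhancer of peptidoglycan sensing by PGRP-LC. It measured 0.792, 1.44 and 2.12 CPM in control libraries, 0.581, 0.882 and 0.622 in mutant libraries and 0.987, 1.79 and 0.498 in rescue libraries. Mutant replicate 2 lay above control replicate 1, and the rescue libraries overlapped both groups. The log2 fold change was -1.06 ± 0.49 in mutant against control (edgeR adjusted p = 0.22), 0.65 ± 0.49 in rescue against mutant (edgeR adjusted p = 0.999) and -0.41 ± 0.48 in rescue against control (edgeR adjusted p = 0.619). The first was -0.67 without control replicate 3, the second 0.11 without rescue replicate 2 and the last -0.01 without control replicate 3.

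The 3 other genes of the family were low. PGRP-SA, the secreted sensor of Gram-positive bacteria upstream of Toll, averaged 1.35 ± 0.622 CPM in control, 1.94 ± 0.539 in mutant and 2.06 ± 0.582 in rescue libraries. PGRP-LD measured 0.788 ± 0.167, 0.995 ± 0.151 and 1.03 ± 0.170 CPM, and its exons overlap other genes on both strands. Neither passed in any comparison (edgeR adjusted p = 0.359 to 0.999). PGRP-SB2, the neighbour of PGRP-SB1, had 0 counts in all 9 libraries, which in the shallowest allows up to 0.0354 counts per 1000000 gene counts (3 counts, counting error only).

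The signalling genes downstream of PGRP-LC and PGRP-LE did not pass in any comparison. Of 13 genes from the adaptor imd to Rel, 0 passed with edgeR in each comparison, where 6.67%, 0.466% and 9.44% of all genes did. With DESeq2 0 passed, against 13.4%, 1.26% and 17.1% of all genes. At an unadjusted edgeR p under 0.05 there were also 0, against 24%, 5.07% and 27.3%. The 13 genes had a median log2 fold change of -0.06 in mutant against control, -0.04 in rescue against mutant and 0.00 in rescue against control. Rel measured 203, 170 and 176 CPM on average in control, mutant and rescue (-0.26 in mutant against control, edgeR adjusted p = 0.537). Of 9 inhibitors of the pathway 0 passed with edgeR, against 6.67%, 0.466% and 9.44% of all genes. DESeq2 also called 0, against 13.4%, 1.26% and 17.1%. At an unadjusted edgeR p under 0.05, 1 inhibitor passed in mutant against control (dnr1), against 24% of all genes. In the other comparisons 0 did, against 5.07% and 27.3%. The inhibitors had medians of -0.03, -0.04 and 0.02 in the same order. pirk, which is induced by the pathway and blocks receptor signalling, averaged 94.1, 84.3 and 113 CPM (edgeR adjusted p = 0.726 to 0.999).

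Antimicrobial peptide genes, the output of the pathway, were low and differed more between libraries. Of 13 tested members 0 rose and 1 fell in mutant against control (CecC), 1 rose and 0 fell in rescue against mutant (DptA), and 2 rose and 0 fell in rescue against control (DptA and Def). Of all tested genes 6.67%, 0.466% and 9.44% passed in these comparisons. With the replicate number as a block, 2 fell in mutant against control, CecC and edin, the latter named after its values were seen. The list medians were -2.98, 4.27 and 0.15 on the log2 scale, and the first was -2.68 with the gene at 0 in the mutant, AttC, set at its bound of 3 counts over the group. At an unadjusted p under 0.05, 7 were lower, 11 higher and 4 higher in these comparisons, against 24%, 5.07% and 27.3% of all genes in either direction. By DESeq2 4 fell, 5 rose and 3 rose, against 13.4%, 1.26% and 17.1%. DptA measured 0.354, 1.34 and 0.794 CPM in control libraries, 0.102, 0.367 and 0.0861 in mutant libraries and 65.0, 10.4 and 27.5 in rescue libraries (rescue against mutant edgeR adjusted p = 0.00487, and 0.0613 without mutant replicate 1). The order of the rescue libraries for DptA differed from that for PGRP-SB1. CecC fell by 4.75 ± 1.08 (edgeR adjusted p = 0.0307), a call lost without control replicate 2 or any 1 mutant library. In this comparison CecC was too low to be tested with the 6 libraries compared or with a minimum of 1 CPM in 3 libraries. Def rose by 2.11 ± 0.49 in rescue against control (edgeR adjusted p = 0.028), a call lost in fits that left out control replicate 1 or 3 or rescue replicate 2 or 3 or the mutant group (edgeR adjusted p up to 0.0998).

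Toll pathway genes, which act with PGRP-SA and PGRP-SD, changed in both directions. Of 15 tested, 2 rose and 2 fell in mutant against control, 0 passed in rescue against mutant with edgeR (0 at an unadjusted p under 0.05, 0 with DESeq2), and 2 rose and 2 fell in rescue against control, where 6.67%, 0.466% and 9.44% of all tested genes passed. The list medians were 0.02, 0.12 and 0.16. The serine protease gene grass, upstream of the Toll ligand, rose from 2.02 ± 0.379 CPM in control to 8.52 ± 2.52 in the mutant (2.07 ± 0.28, edgeR adjusted p = 0.00301) and 11.1 ± 3.04 in the rescue (2.46 ± 0.28, edgeR adjusted p = 0.00112). It passed under all alternatives tried in both comparisons. spz, the Toll ligand gene, fell by 3.51 ± 0.86 in the mutant (edgeR adjusted p = 0.0406) and measured -3.30 ± 0.85 in the rescue (edgeR adjusted p = 0.0405). Its control libraries measured 0.969, 1.62 and 9.28 CPM, and both calls were lost without control replicate 3, without any 1 mutant or rescue library and in fits of the 6 libraries compared (edgeR adjusted p up to 0.141). With a minimum of 1 CPM in 3 libraries, spz and modSP were not tested. modSP, another protease gene of the cascade, fell by 1.24 ± 0.27 in the mutant (edgeR adjusted p = 0.0243, up to 0.0918 without control replicate 2, without any 1 mutant library or with the 6 libraries alone). In the rescue it measured -1.05 ± 0.27 (edgeR adjusted p = 0.0388, up to 0.13), a call lost without control replicate 2 or 3 and without any 1 rescue library, among others. cact, which encodes the inhibitor of the Toll transcription factors, averaged 94.2, 131 and 130 CPM in the 3 groups. It rose in the mutant by 0.47 ± 0.10 (edgeR adjusted p = 0.0267, up to 0.0866) and in the rescue by 0.46 ± 0.10 (edgeR adjusted p = 0.0255, up to 0.0952), and both calls were lost without control replicate 1 and in fits of the 6 libraries compared. The mutant call was also lost without any 1 mutant library or rescue replicate 3, and the rescue call without rescue replicate 2 or 3.

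Of 5 listed genes of gut oxidative defence, Duox matched no symbol in the name table and was not read, which left 4 tested. With edgeR 1 of these 4 passed in mutant against control, where 6.67% of all tested genes did. This was Irc, the gene of an immune-regulated catalase. It fell from 3.81 ± 1.39 CPM in control to 1.65 ± 0.0666 in the mutant (-1.21 ± 0.26, edgeR adjusted p = 0.0263). That call was lost without control replicate 2, without any 1 mutant library and with the 6 libraries alone (edgeR adjusted p up to 0.0974). With edgeR and all 9 libraries TMM-scaled, no gene of this list passed in the other comparisons, where 0.466% and 9.44% of all tested genes did. In rescue against mutant 0 passed by DESeq2 and 0 had an unadjusted p under 0.05, against 1.26% and 5.07% of all genes. For rescue against control these were 1 and 3, against 17.1% and 27.3%. In rescue against control 1 gene, Nox, an NADPH oxidase gene named after its values were seen, rose with edgeR when library totals alone were used or control replicate 2 was left out.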

How the data were processed

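The authors deposited raw counts of reads or read pairs per gene, 1 table per library, from poly(A) midgut RNA (stranded mRNA kit, 500 ng of RNA, 100-base reads from both ends, per the labels' protocols). TopHat2 2.0.11, HTSeq and the build dm3 are named in the submitters' processing notes. HTSeq's strand setting and overlap mode are not given in the sources used here. Symbols came from a reference name table that matched 15002 of 15682 identifiers, and lengths, neighbours and overlaps from a current Ensembl annotation of BDGP6, a different build, so no coordinates are given. The 5 lines that name no gene were left out. They held alignments outside genes (1.30% to 1.83% of all), matching more than 1 gene (0.822% to 1.09%) and at more than 1 place.

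The test was edgeR's quasi-likelihood F test (edgeR 4.0.16, R 4.3.3). filterByExpr (10 counts, 15 in total) left 10088 genes, library sizes were TMM-scaled, and all 9 libraries entered 1 model with group means. Adjusted p is the Benjamini-Hochberg value over all 10088 genes, with a threshold of 0.05. Standard errors came from the F statistic. The code was tested on simulated data. Alternatives were RLE, upper-quartile and no scaling, no filter, 1 CPM in 3 libraries, DESeq2 1.42.0, a replicate block, the 6 libraries compared, each library left out, and PGRP-SC1a and PGRP-SC1b summed. The promoter motif search listed in the plan was not run. Wilson intervals of the PGRP-SC1a share were computed in scipy 1.17.1.

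Deviations of control and mutant libraries of the same replicate number correlated across genes at r = 0.204, 0.176 and 0.17. The numbers in the titles may therefore pair these samples. The reported values come from the model without this pairing, and the replicate block among the alternatives takes it in. With the block, mutant against control measured -0.26 ± 0.43 for PGRP-SC1a, -0.10 ± 0.44 for PGRP-SC1b and -0.24 ± 0.17 for PGRP-LB. The block changed no call on the 10 members in that comparison. Nothing in the labels states that the 3 libraries of a group are separate crosses or cultures. The p-values therefore cover the spread between these libraries, and that spread may be technical. Libraries of a group differed by 122 to 1002 in chi-square per degree of freedom, so none was a copy.

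The members, gene lists and marker lists were chosen with earlier results of these data known. All family members are named. Of each list, up to 3 genes per comparison that passed are named, by largest change. cact, rank below 3 in its list, and Rel, pirk and dnr1, which did not pass, were named after their values were seen. Likeness to PGRP-SB1 used log2 of CPM plus 0.05.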

Additional observations from a re-analysis of the deposited data

How the results depend on the processing

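Over 18 alternative settings and 30 log2 fold changes of members, 537 values were compared with those reported: 532 stayed on the same side of the threshold and 5 newly passed, with 0 reversed calls. The 5 were PGRP-SC1a in rescue against mutant (6 libraries compared), PGRP-SB1 in rescue against mutant (DESeq2), and in rescue against control PGRP-SC1a (replicate block, and without control replicate 2) and PGRP-SC2 (without control replicate 2). A sign change with no call occurred in 16 values. Members called thus numbered 0 in the main analysis, and in rescue against mutant 1 with DESeq2 and 1 with the 6 libraries compared, in rescue against control 1 with the replicate block. Leaving out each library gave 0 to 2 members in rescue against control and 0 in the other comparisons.

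The replicate block called PGRP-SC1a in rescue against control (log2 fold change 1.98, edgeR adjusted p = 0.0299), where same-numbered libraries correlated at r = 0.0237, 0.251 and 0.0304 and not every library best with its own number. For rescue against mutant these were 0.0964, 0.0726 and -0.237, likewise not all best. The block changed no other call on a member. In rescue against control it gave 3 risen antimicrobial peptide genes in place of 2 and 1 fallen Toll pathway gene in place of 2, and all genes called moved to 759, 38 and 917 in the 3 comparisons.

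Genes called over the whole table numbered 673, 47 and 952 in mutant against control, rescue against mutant and rescue against control. With DESeq2 they were 1354, 127 and 1740. A fit of the 6 libraries of a comparison gave 416, 70 and 494. With each library left out they ranged over 329 to 758, 21 to 71 and 360 to 974. The cause was not tested. In rescue against control, 50.7% of calls were higher, and 59.1% with library totals alone. The share of PGRP-SC1a in rescue exceeded that in the mutant by 28.0 to 29.2 percentage points and that in control by 25.8 to 27.0 with each library left out. Depth limits PGRP-SB1 (2 to 91 counts per library) and PGRP-SB2 (0 counts).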
